A study of Oryza sativa with 36 samples.

Results

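The SAPK genes of rice encode the SnRK2 family of protein kinases, 10 genes named SAPK1 to SAPK10 (stress/ABA-activated protein kinases). Each was found on the array as the probe sets that the platform annotation maps to 1 gene whose symbol or synonym is that name, with or without an Os prefix. All 10 genes were found, each with 1 probe set, among 57258 probe sets tested and 17905 named genes.

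Abscisic acid (ABA) is the hormone that rises in plants short of water, and SnRK2 kinases are the positive relay of its signal. Receptors of the PYL family bind ABA and then hold back protein phosphatases of clade A (PP2C), which otherwise keep SnRK2 kinases switched off, and the freed kinases phosphorylate bZIP transcription factors that turn on dehydrin and other late embryogenesis abundant genes. Rice SnRK2 kinases fall into subclass I (SAPK4 to SAPK7), subclass II (SAPK1 to SAPK3) and subclass III (SAPK8 to SAPK10). The kinases of the family are activated by hyperosmotic stress, and those of subclass III also strongly by ABA. Activation is by phosphorylation of the protein, which an RNA measurement does not show.

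The 36 arrays came from seedlings of Oryza sativa indica at the 3-leaf stage, grown in Yoshida nutrient solution and sampled as shoots (labelled Leaf) and roots. PL177 (line 177-103 of the labels) is a single line derived from introgression lines in the background of IR64, described as salt tolerant, and IR64, its background parent, is moderately sensitive to salt. Seedlings were grown under control conditions, with 140 mM NaCl (salt), or with 140 mM NaCl and 10 µM ABA (salt+ABA). Both treatments lasted 4 days by the labels, while the methods of the study describe a longer treatment. The labels give no duration for the control samples. No group received ABA without salt. Each of the 12 groups of genotype, organ and treatment held 3 biological replicates. Each array measured RNA of a whole organ, so fewer cells that express a gene and less RNA per cell cannot be told apart.

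Array medians ran from 56.8 to 64.3 intensity units, and the number of arrays, 3 in a group, limits the precision. Leaf markers (CAB2R, RBCS and RBCS1, genes of light harvesting and carbon fixation) summed to 37658 to 40476 in the shoot arrays, although RBCS1 was below 32 on every array. In roots the leaf-marker sum was 6063 to 12769 under control, 13881 to 20711 under salt and 4630 to 7433 under salt+ABA. Under salt the brightest probe set of CAB2R did not pass between shoot and root (limma, log2 0.27, adjusted p = 0.171 in PL177 and 0.27, adjusted p = 0.178 in IR64). Its other probe set was higher in shoots (0.78, adjusted p = 0.0132 and 0.68, adjusted p = 0.0287). The 6 root markers, genes of silicon and iron uptake, summed to 23390 to 34571 in root arrays and to 1378 to 5227 in shoot arrays. NAAT1, 1 of the 6, did not follow the sum and was higher in shoots than in roots of control IR64 (log2 1.03, adjusted p = 0.00583). The shoot control arrays numbered 2 stood farthest from their groups of all 36 arrays. Their deviations from the group mean had an SD of 0.356 (PL177) and 0.338 (IR64) on the log2 scale over 23782 probe sets. The shoot control arrays numbered 1 and 3 came next, at 0.294 and 0.316 in PL177 and 0.298 and 0.326 in IR64. The control shoot groups were thus scattered as a whole. Results that rest on the arrays numbered 2 are given below without them too, as an alternative chosen after seeing the data and not as a correction.

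**Figure D1:**
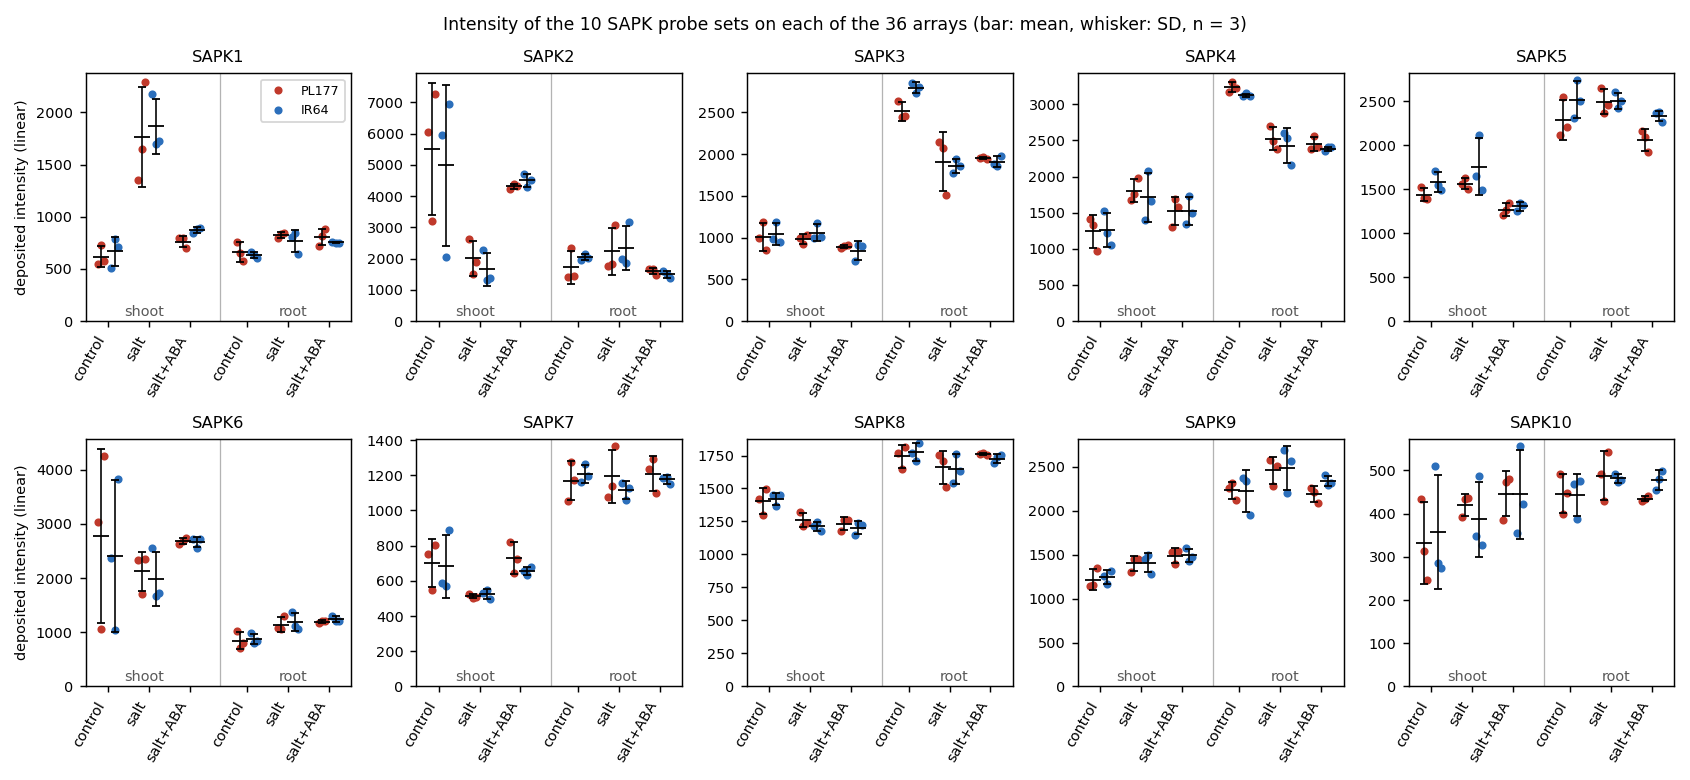
Deposited intensity of each SAPK probe set (linear scale from 0) in the 12 groups; points are the 3 arrays of a group, the bar is their mean and the whisker their SD. SAPK1 stood highest in shoots under salt, SAPK2 was lower under salt than in the other shoot groups, and all root points of SAPK3 and SAPK4 lay above all shoot points.

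A probe set passed when its adjusted p (limma, Benjamini-Hochberg over all 57258 probe sets) was below 0.05, and was a differentially expressed gene (DEG) when it also changed by more than 2-fold. Fold changes are on the scale of log2(intensity + 32). All groups of a fit share an estimate of the spread, so arrays outside a comparison also move its p-value. Under salt, 10 of 40 pairs of a SAPK gene and a genotype and organ passed, 3 higher and 7 lower, beside 12% of all probe sets (6.45% higher and 5.52% lower). DEGs were 4 of the 40, 2 higher and 2 lower, beside 1.78% of all probe sets (0.822% higher and 0.963% lower). The 4 DEGs were SAPK1 and SAPK2 in the shoots of both genotypes. Under salt+ABA against control, 9 of 40 passed (4 higher, 5 lower), beside 9.32% of all probe sets (4.74% higher and 4.58% lower). None was a DEG, beside 1.45%. An unadjusted p below 0.05 was reached by 12 of the 40. Of all 57258 probe sets, 11377 (PL177) and 11935 (IR64) reached it in the shoot comparisons. The root comparisons gave 15379 (PL177) and 13945 (IR64), so this level was common among all probe sets. Under salt+ABA against salt, 5 of 40 passed (2 higher, 3 lower), beside 8.63% of all probe sets (4.04% higher and 4.59% lower), a share near the background. DEGs were 3 of the 40, SAPK2 higher in IR64 shoots and SAPK1 lower in the shoots of both genotypes, beside 1.03% (0.282% higher and 0.753% lower). Salt and salt+ABA were each compared with the same control arrays, and the pairs of 1 gene in different groups are not independent. The shares of all probe sets, here and below, include dim ones, while the SAPK probe sets averaged 429.8 to 2868.59. Among 23782 probe sets with a mean above 100, SAPK1 and SAPK2 ranked at percentiles 95.4 and 96.1 by range of shoot group means. The other SAPK genes ran from 10.3 to 66.5 in shoots, and all 10 ran from 2.7 to 72.7 in roots.

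SAPK1 (LOC4333017), a kinase of subclass II, rose under salt in the shoots of both genotypes and stood lower with salt+ABA than with salt. In PL177 shoots its intensity was 546, 733 and 576 on the 3 control arrays, 1356, 1649 and 2287 under salt and 792, 796 and 697 under salt+ABA. In IR64 shoots it was 512, 783 and 714 under control, 2173, 1696 and 1729 under salt and 844, 887 and 892 under salt+ABA. All salt arrays lay above all arrays of the other treatments in each genotype, and control and salt+ABA arrays overlapped in PL177 but not in IR64. The rise under salt was 2.72-fold in PL177 (log2 1.45, SE 0.19, adjusted p = 0.000348) and 2.82-fold in IR64 (log2 1.50, SE 0.19, adjusted p = 0.000248). From salt to salt+ABA it fell by 1.16 in PL177 (adjusted p = 0.00272) and by 1.09 in IR64 (adjusted p = 0.0051) on the log2 scale. Levels under salt+ABA did not pass against control, at log2 0.29 in PL177 (adjusted p = 0.453) and 0.41 in IR64 (adjusted p = 0.253).

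In roots SAPK1 stayed between 575 and 879 over all 18 arrays and passed in no treatment comparison with all arrays kept. In PL177 roots the arrays read 762, 655 and 575 under control and 795, 833 and 848 under salt, and in IR64 roots 662, 635 and 603 under control and 807, 842 and 645 under salt. The root salt arrays of PL177 all lay above its control arrays, by log2 0.25 (adjusted p = 0.148), and in IR64 the groups overlapped, with log2 0.21 (adjusted p = 0.254). Without both root salt arrays numbered 3 the IR64 value was log2 0.34 and passed (adjusted p = 0.0385). The shoot response to salt exceeded the root response by log2 1.13 in PL177 (SE 0.23, adjusted p = 0.00194) and 1.21 in IR64 (adjusted p = 0.000821).

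SAPK2 (LOC4343944), also of subclass II, moved the other way in shoots: it fell under salt and stood higher under salt+ABA. In PL177 shoots its intensity was 6055, 3188 and 7278 under control, 2620.5, 1505 and 1905 under salt and 4222, 4388 and 4323 under salt+ABA. In IR64 shoots it was 5951, 2061 and 6948 under control, 2276, 1306 and 1381 under salt and 4718, 4303 and 4519 under salt+ABA. The control array numbered 2 was the low one in each genotype, and in IR64 it lay inside the range of the salt arrays, while in PL177 the control and salt arrays did not overlap. The salt+ABA arrays lay above all salt arrays in both genotypes and close to each other. The fall under salt was 1.34 in PL177 (SE 0.36, adjusted p = 0.0274) and 1.39 in IR64 (SE 0.36, adjusted p = 0.026) on the log2 scale. From salt to salt+ABA SAPK2 rose by log2 1.49 in IR64 (adjusted p = 0.022), and the difference in PL177 was log2 1.14 (adjusted p = 0.0592).

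The SAPK2 calls rested on few arrays. Without both shoot control arrays numbered 2 it fell under salt by 1.66 in PL177 (adjusted p = 0.000261) and by 1.88 in IR64 (adjusted p = 9.71e-05), and from salt to salt+ABA it rose by 1.13 in PL177 (adjusted p = 0.00291) and 1.48 in IR64 (adjusted p = 0.000783). Control arrays are not part of the comparison of salt+ABA with salt, and they moved its p-values through the shared spread. With all others kept, the salt call of PL177 was lost without control array 1 (log2 -1.24), control array 3 (-1.12), salt array 2 (-1.16) or salt array 3 (-1.32), and that of IR64 without the arrays of the same numbers (-1.21, -1.06, -1.23 and -1.30). Fitted on the 6 arrays compared alone, neither salt call held (PL177, adjusted p = 0.0768; IR64, adjusted p = 0.221). The salt+ABA call of IR64 was lost without salt array 2 (1.33) or 3 (1.40), or without any salt+ABA array (1.46 to 1.52).

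In roots SAPK2 passed in no treatment comparison. The root salt arrays numbered 3 read high in both genotypes, with 1777, 1829.9 and 3091 in PL177 and 1987, 1867 and 3163 in IR64, against control arrays of 1411, 2332 and 1437 in PL177 and 1948, 2141 and 2032 in IR64. The change under salt was log2 0.28 in PL177 and 0.14 in IR64, and without both of those arrays 0.02 and -0.08. Salt+ABA arrays read 1653, 1681 and 1480.3 in PL177 and 1605, 1505 and 1382 in IR64, the latter all below the IR64 control arrays.

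**Figure D2:**
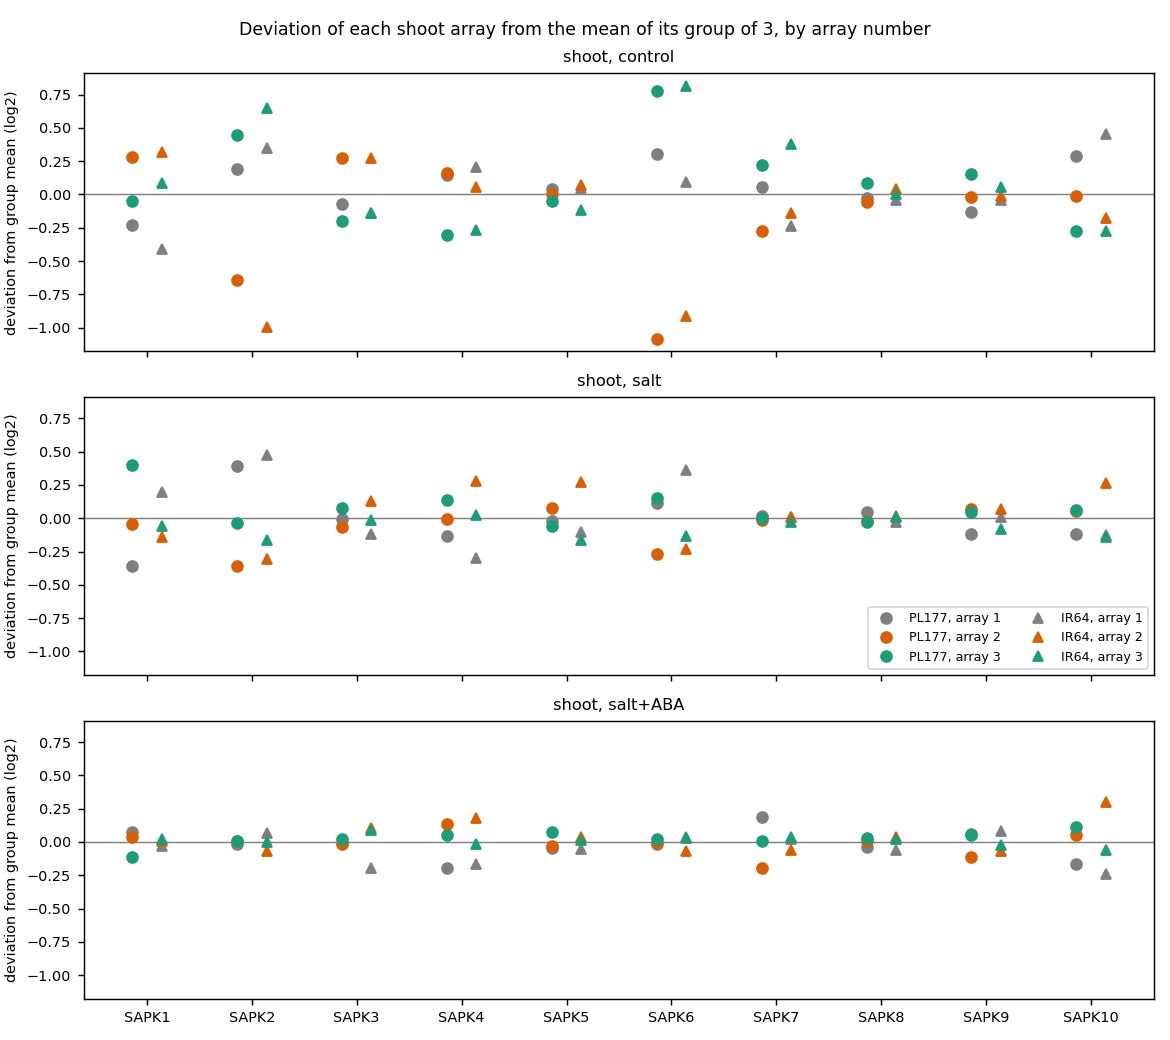
Deviation of each shoot array from its group mean (log2) for the 10 SAPK probe sets, by treatment and replicate number. The shoot control arrays numbered 2 lay far below their group means for SAPK2 and SAPK6 in both genotypes, where SAPK2 read 3188 and 2061 and SAPK6 read 1063 and 1033. The control arrays numbered 3 lay above the means of SAPK6, by 0.78 in PL177 and 0.82 in IR64.

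SAPK3 (LOC4349411), the third member of subclass II, was lower under both treatments in roots and passed in no shoot comparison with all arrays kept. In PL177 roots its intensity was 2638, 2438 and 2454 under control, 2150.1, 2072 and 1508 under salt and 1955, 1969 and 1946 under salt+ABA. In IR64 roots it was 2857, 2729.7 and 2805 under control, 1777, 1941 and 1856 under salt and 1879, 1859 and 1982 under salt+ABA. Control arrays lay above all treated arrays in each genotype, and salt and salt+ABA arrays overlapped. Under salt it fell by 0.48 in PL177 (SE 0.09, adjusted p = 0.00186) and by 0.59 in IR64 (adjusted p = 0.000445). Under salt+ABA it fell by 0.40 in PL177 (adjusted p = 0.00512) and by 0.50 in IR64 (adjusted p = 0.00123), all on the log2 scale and all under 2-fold. In shoots the 18 arrays ran from 716 to 1189, with changes under salt of log2 -0.01 in PL177 and 0.08 in IR64. Shoot arrays under salt+ABA lay below all salt arrays in both genotypes. The difference was log2 -0.14 in PL177 and -0.34 in IR64 (adjusted p = 0.118), and the latter passed without both shoot control arrays numbered 2 (-0.34, adjusted p = 0.0173).

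SAPK4 (LOC4324934), of subclass I, fell in roots under both treatments as SAPK3 did. PL177 roots read 3171, 3312 and 3229 under control, 2698, 2497 and 2377 under salt and 2383, 2563 and 2414 under salt+ABA. IR64 roots read 3110.0, 3151 and 3109.6 under control, 2599, 2531 and 2158 under salt and 2355, 2402 and 2405 under salt+ABA. No treated array reached a control array, and the changes from salt to salt+ABA did not pass. Under salt SAPK4 fell by 0.44 in PL177 (SE 0.07, adjusted p = 0.000553) and by 0.38 in IR64 (adjusted p = 0.0016), and under salt+ABA by 0.43 (adjusted p = 0.000338) and by 0.33 (adjusted p = 0.00367). None of the 8 root calls of SAPK3 and SAPK4 was lost without any 1 array, but fitted on the 6 arrays compared alone the salt calls of SAPK3 in PL177 (adjusted p = 0.0781) and of SAPK4 in IR64 (adjusted p = 0.066) did not hold. With all 36 arrays in one fit the IR64 calls of SAPK4 were lost at like values, log2 -0.38 under salt (adjusted p = 0.0514) and -0.33 under salt+ABA (adjusted p = 0.104). The leaf-marker sum in roots was above the control range under salt in both genotypes. Under salt+ABA it overlapped control in PL177 (4630 to 6505 against 6063 to 12769). In IR64 it lay below control (5334 to 7433 against 8326 to 12277). SAPK3 and SAPK4 stood below control under both treatments. The part of the leaf-marker sum in the root values was not tested.

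In shoots SAPK4 ran the other way. Its intensity in PL177 was 1411, 1335 and 975 under control and 1671, 1760.2 and 1986 under salt, and in IR64 1518, 1225 and 1049 under control and 1399, 2072 and 1664 under salt. The PL177 groups did not overlap and the IR64 groups did. SAPK4 rose under salt in PL177 by log2 0.57 (SE 0.17, adjusted p = 0.0389), a call lost without any of 8 of the 18 shoot arrays. Over all 18 fits with 1 array left out, kept calls included, it ran from log2 0.42 to 0.65 (adjusted p 0.0271 to 0.163). In IR64 the value was log2 0.49 (adjusted p = 0.0859). The shoot response to salt exceeded the root response by log2 0.98 in PL177 (adjusted p = 0.000721) and 0.85 in IR64 (adjusted p = 0.0026).

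The other members of subclass I changed little or unevenly. SAPK5 (LOC4337502) in IR64 shoots read 1653, 2115 and 1492 under salt and 1247, 1339 and 1325 under salt+ABA, groups that did not overlap. There it fell by 0.43 on the log2 scale (SE 0.09, adjusted p = 0.0134), beside log2 -0.29 in PL177 (adjusted p = 0.0552), where the arrays read 1556, 1627 and 1502 under salt and 1202, 1258 and 1343 under salt+ABA. The IR64 call was lost with the 6 arrays compared fitted alone (adjusted p = 0.0703), and the other treatment comparisons of SAPK5 did not pass.

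SAPK6 (LOC4329630) varied most of the 10 genes among replicate shoot arrays. Shoot controls read 3039.6, 1063 and 4246 in PL177 and 2373, 1033 and 3826 in IR64, against salt arrays of 2329, 1713 and 2344 in PL177 and 2555, 1663 and 1719.8 in IR64. The low control array was again number 2 in each genotype, and control and salt arrays overlapped. Its residual SD in shoots was 0.556 on the log2 scale, the 95th percentile of 23782 probe sets, and that of SAPK2 was 0.485, the 93rd. The change under salt was log2 -0.13 in PL177 and -0.04 in IR64. Without both control arrays numbered 2 it fell by 0.67 in PL177 (adjusted p = 0.049), with log2 -0.50 in IR64 (adjusted p = 0.156).

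In roots SAPK6 rose under salt+ABA against control. The arrays read 1023, 716 and 802 under control and 1172, 1208 and 1214 under salt+ABA in PL177, and 983, 799 and 837 under control and 1304, 1202 and 1210.4 under salt+ABA in IR64, with no overlap in either genotype. The rise was log2 0.45 in PL177 (SE 0.13, adjusted p = 0.0253) and 0.50 in IR64 (adjusted p = 0.0187). These calls were lost without any of 5 arrays in PL177 and of 3 in IR64, and with all 36 arrays in one fit (0.48, adjusted p = 0.375 and 0.53, adjusted p = 0.346). Over all fits with 1 root array left out, kept calls included, the rise ran from log2 0.34 to 0.58 in PL177 and from 0.44 to 0.59 in IR64. Under salt alone the values were log2 0.36 (adjusted p = 0.0738) and 0.38 (adjusted p = 0.0666), and without both root salt arrays numbered 3 they were 0.26 (adjusted p = 0.219) and 0.46 (adjusted p = 0.0388).

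SAPK7 (LOC4335877, with a probe set that may read more than 1 transcript) read 528, 502 and 510.4 in PL177 shoots under salt and 819, 642 and 727 under salt+ABA, without overlap. It rose by log2 0.48 between them (SE 0.15, adjusted p = 0.0449), a call lost without any of 12 of the 18 shoot arrays. In IR64 the value was log2 0.32 (adjusted p = 0.193). Against control the salt values were log2 -0.42 in PL177 (adjusted p = 0.0766) and -0.30 in IR64 (adjusted p = 0.236), and without both control arrays numbered 2 it fell by 0.55 in PL177 (adjusted p = 0.0158).

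The 3 genes of subclass III changed by less than 2-fold in all treatment comparisons. SAPK8 (LOC4334218) read 1422, 1298 and 1497 in PL177 shoots under control, 1324, 1219 and 1239 under salt and 1181, 1258 and 1265 under salt+ABA. In IR64 shoots it read 1448, 1368 and 1450.4 under control, 1217, 1244 and 1176 under salt and 1147, 1239.7 and 1225 under salt+ABA, the treated arrays all below the control arrays. Its residual SD of 0.047 was at the 0.4th percentile, so that small shifts passed. It fell in IR64 shoots by 0.17 under salt (SE 0.05, adjusted p = 0.0406) and by 0.19 under salt+ABA (adjusted p = 0.0352), beside -0.12 (adjusted p = 0.132) and -0.14 (adjusted p = 0.105) in PL177. Without both control arrays numbered 2 neither IR64 call held, at -0.15 (adjusted p = 0.0802) and -0.17 (adjusted p = 0.0725), and with 1 array left out the calls were lost in 12 and in 5 of 18 cases.

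SAPK9 (LOC4352660, with a probe set that may read more than 1 gene) rose in shoots under salt+ABA against control. PL177 shoots read 1139, 1155 and 1350.3 under control and 1530.5, 1395 and 1547 under salt+ABA, and IR64 shoots 1263, 1164 and 1321 under control and 1574, 1429 and 1473 under salt+ABA. The treated arrays lay above all control arrays in both genotypes. The rise was log2 0.33 in PL177 (SE 0.08, adjusted p = 0.0285) and 0.30 in IR64 (adjusted p = 0.0417), and without both control arrays numbered 2 it was 0.32 (adjusted p = 0.0532) and 0.29 (adjusted p = 0.0777). With 1 of the 18 arrays left out the calls were lost in 4 cases in PL177 and in 11 in IR64. Over all 18 cases the rise ran from log2 0.26 to 0.41 in PL177 and from 0.25 to 0.33 in IR64. Under salt alone the values were log2 0.24 (adjusted p = 0.0688) and 0.23 (adjusted p = 0.0864).

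SAPK10 (LOC4333435) passed in no treatment comparison. Its shoot arrays read 433, 314 and 247 under control and 391, 434 and 436 under salt in PL177, and 509.9, 287 and 274 under control and 348, 486 and 326 under salt in IR64. Under salt+ABA they read 386, 472 and 481 in PL177 and 354, 557 and 423 in IR64, with overlap between treatments. The shoot changes were log2 0.31 and 0.15 under salt and 0.38 and 0.34 under salt+ABA, in PL177 and IR64. In PL177 the 95% interval of the salt change ran from -0.11 to 0.72, which leaves room for a rise of less than 2-fold.

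**Figure D3:**
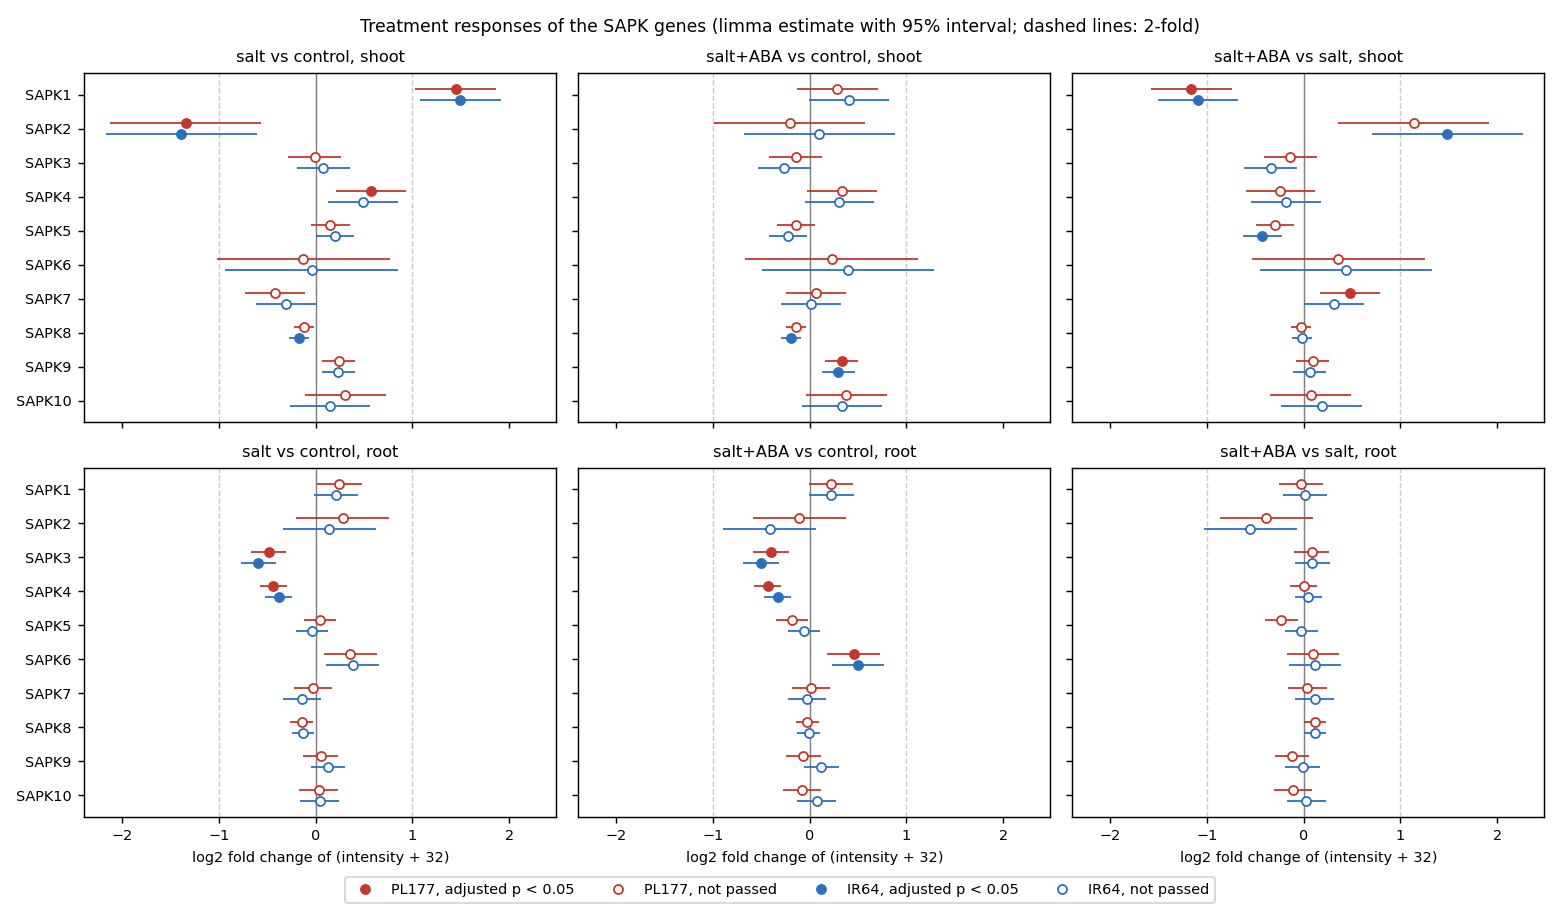
Log2 fold change of each SAPK gene in the 3 treatment comparisons, by organ and genotype, with 95% intervals from limma; filled points have an adjusted p below 0.05 and dashed lines mark 2-fold. SAPK1 (log2 1.45 in PL177 and 1.50 in IR64 under salt) and SAPK2 (-1.34 and -1.39) in shoots lay beyond 2-fold, and the root points of SAPK3 and SAPK4 lay below 0 in both comparisons with control.

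No SAPK gene passed between PL177 and IR64. Of 60 pairs of a gene and an organ and treatment, 0 passed in the comparison of PL177 with IR64 (limma), beside 0.2% of all probe sets. 1 of the 60 had an unadjusted p below 0.05, SAPK5 in roots under salt+ABA, where PL177 read 2159, 2096 and 1923 and IR64 2361, 2374 and 2263 (log2 -0.21, adjusted p = 0.742). The 60 differences ran from log2 -0.22 to 0.28, and the 95% interval lay within 2-fold for 57 of them. The 3 wider ones were SAPK2 and SAPK6 in control shoots and SAPK2 in shoots under salt. The difference between the genotypes in a treatment response also passed for 0 of 60, beside 0.00116% of all probe sets, with 0 at an unadjusted p below 0.05. There the interval was within 2-fold for 54 of 60, and the 6 wider ones were SAPK2 and SAPK6 in shoots. For those genes the intervals reached from log2 -1.45 to 1.18, past 2-fold on both sides. Same-numbered arrays of both genotypes within a treatment deviated together, and with them as fixed pairs 0 of 60 passed in either kind of comparison again, the intervals lay within 2-fold for 60 of 60 in each, and 4 and 2 values had an unadjusted p below 0.05. In that fit SAPK2 in shoots differed by log2 0.23 under control (adjusted p = 0.496) and 0.28 under salt (adjusted p = 0.944), and SAPK5 in roots under salt+ABA by -0.21 (adjusted p = 0.125). The count was also 0 under each alternative run for these comparisons, which were not repeated on single pairs of groups.

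Between organs the family differed widely. In 48 of 60 comparisons of shoot with root the gene passed (limma), 10 higher in shoots and 38 lower, beside 50.2% of all probe sets (23.1% higher and 27.1% lower). DEGs were 23 of the 60 (5 higher, 18 lower), beside 15.9% (7.99% higher and 7.96% lower). The median SAPK difference lay between log2 -0.87 and -0.66 in the 6 comparisons, beside -0.02 to -0.01 for all probe sets. For SAPK3, SAPK4, SAPK7, SAPK8 and SAPK9 all 18 shoot arrays lay below all 18 root arrays. The share of all probe sets separated in this way was not counted, so the separation is not shown to be particular to the family. SAPK3 ran from 716 to 1189 in shoots and from 1508 to 2857 in roots. It differed by log2 -1.62 and -1.69 in control PL177 and IR64, -1.13 and -1.01 under salt, and -1.35 and -1.42 under salt+ABA. SAPK4 differed by log2 -1.71 in PL177 and -1.60 in IR64 control plants, and by -0.73 and -0.75 under salt. SAPK5 was lower in shoots by log2 values of -1.14 to -0.75, SAPK7 by -1.32 to -0.90, SAPK8 by -0.79 to -0.60 and SAPK9 by -1.20 to -0.82, and these passed in each of the 6 comparisons.

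The other 4 genes did not pass as lower in shoots in each of the 6 comparisons. SAPK6 was higher in shoots, by log2 0.51 to 1.17, and passed in 4 of 6 comparisons. Under salt it was 0.66 in PL177 (adjusted p = 0.0865) and 0.51 in IR64 (adjusted p = 0.185), and both passed without both shoot control arrays numbered 2 (0.66, adjusted p = 0.002 and 0.51, adjusted p = 0.014). Without the IR64 shoot control array 3 the control call of IR64 was lost at 0.56. SAPK1 passed between organs under salt, where shoots were above roots by log2 0.85 in PL177 (adjusted p = 6.3e-05) and 1.09 in IR64 (adjusted p = 1.54e-06), and its control values were -0.28 and -0.12. Without both shoot control arrays numbered 2 the control value of PL177 passed in the other direction (-0.41, adjusted p = 0.0337). SAPK2 was higher in shoots of control plants, by 1.24 in PL177 and 0.78 in IR64 (adjusted p = 0.041), and under salt+ABA by 1.14 and 1.30. The control call of IR64 was lost without any of 5 of the 36 arrays. Over all 36 fits with 1 array left out, kept calls included, its value ran from log2 0.45 to 1.27. Under salt the SAPK2 values were -0.38 in PL177 and -0.73 in IR64 (adjusted p = 0.0596), below 0 but not past the threshold, and without both shoot control arrays numbered 2 the IR64 value passed (-0.73, adjusted p = 0.00903). SAPK10 was lower in control shoots, by -0.54 in PL177 (adjusted p = 0.00391) and -0.46 in IR64 (adjusted p = 0.0141), and did not pass in treated plants. Its 6 values all lay below 0 (log2 -0.54 to -0.097). The SAPK10 calls were lost when the deposited values were used without quantile normalization (-0.42 and -0.34), and that of IR64 without both shoot control arrays numbered 2 (-0.37, adjusted p = 0.0788).

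**Figure D4:**
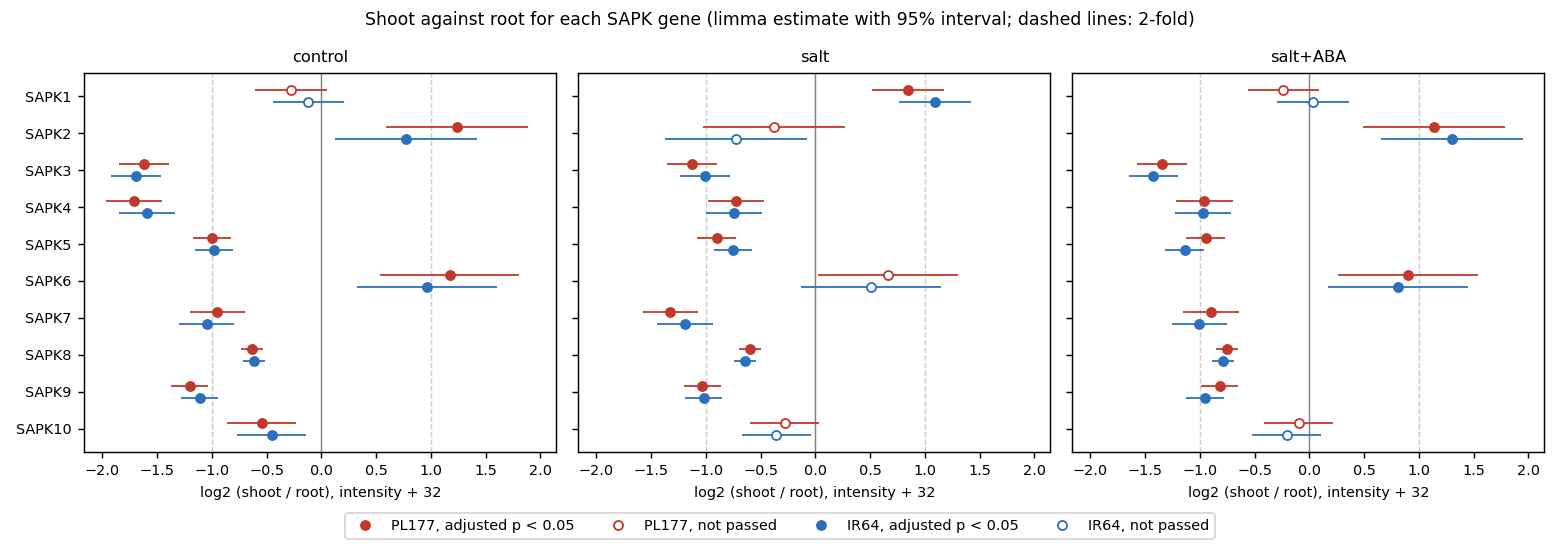
Log2 difference of shoot from root for each SAPK gene under the 3 treatments in PL177 and IR64, with 95% intervals from limma; filled points have an adjusted p below 0.05. Most genes lay below 0, SAPK6 lay above 0 (0.51 to 1.17), and SAPK1 and SAPK2 changed side between control and salt.

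Whether a treatment response differed between shoots and roots was tested directly, and 16 of 60 SAPK responses passed (limma), 11 with the higher value in shoots and 5 with the lower, beside 9.11% of all probe sets (4.46% higher and 4.65% lower). Of these, 8 differed by more than 2-fold, beside 2.57%. The 8 were SAPK1 and SAPK2 under salt and in salt+ABA against salt, in both genotypes. SAPK2 gave the widest difference, log2 2.03 in IR64 for salt+ABA against salt (adjusted p = 0.00335), with 1.52 in PL177 (adjusted p = 0.0312). Without both root salt arrays numbered 3 the SAPK2 differences under salt no longer passed, at -1.34 in PL177 (adjusted p = 0.0698) and -1.28 in IR64 (adjusted p = 0.0877), nor did that of PL177 in salt+ABA against salt, at 1.25 (adjusted p = 0.104). Without those arrays 11 of 60 passed, and without both shoot control arrays numbered 2 it was 22, with SAPK6 under salt at -1.03 in PL177 (adjusted p = 0.00697) and -0.89 in IR64 (adjusted p = 0.0183) among them. The shares of all probe sets in those fits were not kept, so these counts have no background beside them.

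The genes around the kinases were read from lists of the ABA pathway matched by symbol. The lists were chosen with earlier results of these data known, so their counts beside all probe sets are a description. Upstream, only PYL5 of the 26 receptor symbols was found, and it did not pass under salt (log2 -0.55 and -0.59 in shoots, 0.26 and 0.17 in roots of PL177 and IR64). Of 7 clade A PP2C genes, the phosphatases that hold SnRK2 kinases inactive, 3 rose in shoots under salt in each genotype and none was lower, with a list median of log2 0.45 in PL177 and 0.64 in IR64 beside -0.01 and 0.00 for all probe sets. The share of all probe sets that rose was 7.16% and 5.71%. The phosphatase genes were PP2C51 (log2 2.68, adjusted p = 9.63e-05 in PL177 and 2.36, adjusted p = 0.000242 in IR64), PP2C68 (2.41 and 2.45) and PP2C09 (0.71 and 0.80). PP2C51 was at 24.3 ± 2.70 (SD, n = 3) in control PL177 shoots, 380.3 ± 280.5 under salt and 71.0 ± 16.7 under salt+ABA. All control shoot arrays of PP2C51 read below 32, so the size of its change depends on the 32 added. PP2C51 fell from salt to salt+ABA by 1.86 in PL177 (adjusted p = 0.00238) and 1.66 in IR64 (adjusted p = 0.00584). In roots 2 of 7 rose under salt in PL177 (PP2C30, log2 2.04, and PP2C68, 1.82) and 0 in IR64, beside 7.39% and 5.53% of all probe sets. The salt response of 0 of 57258 probe sets passed as higher in PL177 roots than in IR64 roots (limma). In IR64 roots the PP2C30 arrays read 215.5 to 326.63 under control and 391.66 to 2977.13 under salt, without overlap. Root salt array 1 read highest in PL177 and IR64 for PP2C30 (2305.23 and 2977.13, next 837.32 and 623.0). For PP2C68 it read 1179.93 and 1594.11, next 556.42 and 455.62. Under salt+ABA against control 4 and 5 of the 7 genes rose in roots, beside 7.45% and 6.03%.

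Downstream, the bZIP factor TRAB1 rose in shoots under salt by log2 0.56 in PL177 (adjusted p = 0.00148) and 0.61 in IR64 (adjusted p = 0.000852), and BZIP23, the other factor found, passed in no salt comparison with control. The list of 9 genes known to respond to ABA was also chosen with earlier results known, and its counts are not a test. Of the 9, 8 rose in PL177 shoots and 7 in IR64 shoots under salt, beside 7.16% and 5.71% of all probe sets. All of them changed by more than 2-fold, as 0.983% and 0.968% of all probe sets did upward, and the list medians were log2 3.67 and 4.48. The most changed were the dehydrin genes RAB21 (log2 5.79 in PL177 and 6.20 in IR64) and RAB16B (5.66 and 5.27) and the gene PM1 (5.19 and 4.68). RAB16B read below 32 on every control shoot array and PM1 on all of PL177, so the sizes of these changes too depend on the value added. From salt to salt+ABA 5 of the 9 fell in PL177 shoots and 3 in IR64 shoots, beside 5.67% and 5.44% of all probe sets, and none rose. In roots 8 of the 9 rose under salt in each genotype, beside 7.39% and 5.53% of all probe sets, led by RAB16D (log2 3.93 and 3.96), PM1 (3.53 and 3.21) and RAB21 (3.33 and 2.75), and from salt to salt+ABA 3 rose in PL177 and 6 in IR64, beside 3.19% and 3.74% of all probe sets, with none lower. The median SAPK change in shoots under salt was log2 0.07 in PL177 and 0.11 in IR64.

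Over the 12 group means the members fell into patterns of their own. SAPK3, SAPK4, SAPK5, SAPK7, SAPK8 and SAPK9 correlated with each other at Pearson r of 0.88 to 0.974, and SAPK6 with them at -0.973 to -0.841, while SAPK1 and SAPK2 stood at -0.629. The 12 means share the contrast of shoot with root, and the coefficients are a description. Among 14233 named genes with a mean intensity above 100, the one most like SAPK1 was CML8 (r = 0.9837), a gene named as a calmodulin-like protein, followed by LOC4334641 (0.9795). Most like SAPK2 were aoc (0.9878), allene oxide cyclase of jasmonate synthesis, and LOC4324881 (0.9824). For SAPK6 they were FKI (0.9914), a fructokinase, and NAL1 (0.99). SAPK5 was closest to myb17 (0.9966) and SAPK9 to a gene named AtMAP70-1 (0.9962). The closest to SAPK3 (LOC4337470, 0.9972), SAPK4 (LOC4340066, 0.9953), SAPK7 (LOC4345573, 0.995), SAPK8 (LOC4327314, 0.9977) and SAPK10 (LOC4334572, 0.9745) are listed by locus number alone.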

How the data were processed

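RNA of 36 samples was hybridised to Affymetrix rice arrays. The authors deposited linear intensity values for 57381 probe sets (1.0 to 25332.33, with 31.2% of values below 32). How they were summarised and normalized was not given in the sources used here. After 123 control probe sets were left out, 57258 were tested. Platform annotation gave 1 gene for 22436 probe sets, several for 95 and none for 34727. Assembly ASM3414082v1 served for gene names only.

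Intensities were quantile normalized per organ, or over all 36 arrays for comparisons between organs. Then log2(intensity + 32) was fitted in limma 3.58.1 (lmFit, eBayes, R 4.3.3) with 6 groups per organ or 12 in all, and Benjamini-Hochberg adjustment over all probe sets. A DEG changed by more than 2-fold with an adjusted p below 0.05, the rule of the study's methods. The scripts were tested on simulated data. The members and lists were chosen with earlier results of these data known. All SAPK genes were named, and from each pathway list up to 3 genes with the largest change under salt per organ. The like genes were the 2 with the highest Pearson r. P-values rest on the spread between replicates, pooled over all 6 or 12 groups of a fit and moderated over all probe sets. Levels of different probe sets were not compared. Alternatives changed the value added before log2, the normalization, a filter at 64, the variance model, the replicate block and the arrays fitted, and added a t-test per probe set.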

Additional observations from a re-analysis of the deposited data

Results flagged for a closer look

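16 SAPK responses differed between shoots and roots in the test of the difference itself (limma, adjusted p below 0.05). Values are the shoot change minus the root change on the log2 scale. All groups held 3 arrays, too few for a test of single outlying arrays.

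Under salt against control, SAPK1 differed by 1.13 in PL177 (adjusted p = 0.00194) and 1.21 in IR64 (adjusted p = 0.000821), and SAPK4 by 0.98 (adjusted p = 0.000721) and 0.85 (adjusted p = 0.0026). SAPK2 differed by -1.61 in PL177 (adjusted p = 0.0232) and -1.50 in IR64 (adjusted p = 0.0325), each lost without any of 7 arrays. SAPK3 differed by 0.49 in PL177 (adjusted p = 0.0468), a call lost without any of 25 of the 36 arrays and without both root salt arrays numbered 3 (0.34, adjusted p = 0.172), and by 0.68 in IR64 (adjusted p = 0.0051).

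Under salt+ABA against control, SAPK4 differed by 0.75 in PL177 (adjusted p = 0.00684) and 0.62 in IR64 (adjusted p = 0.0282), and SAPK9 by 0.38 in PL177 (adjusted p = 0.0352). The IR64 call of SAPK4 was lost without any of 8 arrays and that of SAPK9 without any of 9 or without both shoot control arrays numbered 2 (0.37, adjusted p = 0.0552).

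Under salt+ABA against salt, SAPK1 differed by -1.08 in PL177 (adjusted p = 0.0022) and -1.06 in IR64 (adjusted p = 0.00251). SAPK2 differed by 1.52 in PL177 (adjusted p = 0.0312), a call lost without any of 9 of the 36 arrays, and by 2.03 in IR64 (adjusted p = 0.00335). SAPK5 differed by -0.39 in IR64 (adjusted p = 0.0398), lost without any of 9 arrays or without both root salt arrays numbered 3 (-0.37, adjusted p = 0.0807).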

How the results depend on the processing

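Of 88 SAPK calls that passed, 66 held without any 1 array and 22 were lost without some array, while none turned its direction. The count of DEGs under salt, 4, became 2 with the 6 arrays compared fitted alone and 0 when each probe set was tested by an adjusted t-test, and that under salt+ABA against salt, 3, became 1 by that t-test; without adjustment its counts were 3 under salt, 0 under salt+ABA against control and 4 under salt+ABA against salt. With 1 array left out, pairs passing under salt+ABA against salt ran from 3 to 6, under salt from 7 to 12, under salt+ABA against control from 7 to 10, between shoot and root from 46 to 51, and organ differences from 13 to 16. Of the 88 calls, 8 were lost with 1 added before log2, 1 with a larger value added, 8 with median centring, 7 with values as deposited, 2 with the filter on dim probe sets, 8 with trend and robust options and 0 with the mean of a gene's probe sets. With the 6 arrays compared fitted alone 10 of 24 calls were lost, SAPK3 in PL177 roots and SAPK4 in IR64 roots under salt among them. The root SAPK6 calls were among the 4 of 24 lost with all 36 arrays in one fit, and the cause was not tested. The alternatives chosen after seeing the data, without both shoot control arrays numbered 2 or both root salt arrays numbered 3, lost 6 and 5 calls, while the passing organ differences, 16 with all arrays, became 22 and 11 and the passing differences between shoot and root, 48, became 51 and 48. The replicate number as a fixed block lost 0 calls and gave 12, 9 and 7 passing pairs in the 3 treatment comparisons, as a random block 10, 9 and 7. Shares of all probe sets were not kept for these alternatives to the treatment and organ comparisons, so their counts have no background. Same-numbered arrays of both genotypes within a treatment deviated together (18 pairs, r 0.033 to 0.799), but those of different treatments did not (median r -0.034 in shoots and -0.061 in roots), so the numbers were not used as pairs in the treatment comparisons. For the genotype comparisons fixed pairs within a treatment, an alternative also chosen after seeing the data, gave 0 of 60 and 0 of 60.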
